A study of Mus musculus with 44 samples.

Results

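The bile acid and xenobiotic receptor axis was described here by 8 genes, chosen by symbol with earlier results of these data known: Nr1h4, Nr1i2, Nr0b2, Fgf15, Fabp6, Slc10a2, Abcc2 and Abcb1a. All 8 were found among the 19733 gene symbols of a count table of mouse organoid RNA-seq, which has 20 libraries in 2 experiments that were never fitted together. In the first experiment, with 11 libraries, gastric organoid lines of strain C57BL/6 carried a lentiviral transgene for the intestinal transcription factor CDX2 (3 libraries), for the transcription factor HNF4A (3) or for the neutral protein GFP (3), and 2 libraries came from small intestine organoids of the same strain. In the second, with 9 libraries, stomach antrum organoids of strain C57BL/6 overexpressed HNF4A in every group. They carried a wild-type Cdx2 3' enhancer (3 libraries), a heterozygous deletion of it (3) or a homozygous deletion (3), made by CRISPR-Cas9 in the mouse germline. The sources used here do not give the promoter or species of the transgenes, the age of the mice or the number of mice behind the organoids. Of the lentiviral lines, the titles and the tissue tag were followed; the source field of the same samples reads small intestine.

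Bile acids are made from cholesterol in the liver, released into the gut and recovered by enterocytes of the ileum, the last segment of the small intestine. There the apical carrier encoded by Slc10a2 takes them up, the binding protein encoded by Fabp6 carries them through the cell, and the bile acid receptor FXR, encoded by Nr1h4, turns on genes such as Fabp6, Nr0b2 (the corepressor SHP) and Fgf15, a hormone that lowers bile acid synthesis in the liver. The pregnane X receptor PXR, encoded by Nr1i2, responds to drugs, steroids and some bile acids, and induces detoxifying enzymes and the efflux pumps MRP2 (Abcc2) and P-glycoprotein (Abcb1a), which export drugs and conjugates across the apical membrane. The liver and the intestine are the main sites of this axis, and the glandular stomach is not known for it.

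To show what lies in front of the members, the 250 bases before the annotated start were read from RefSeq promoter windows of assembly GRCm38.p6, which hold 7 of the 8 members (Fgf15 has no entry). The 4 printed here belong to the members whose windows held a match and to Abcc2, the pump with the larger difference between small intestine and GFP organoids. Matches are in capitals, and each sequence runs 5′ to 3′ on the gene's strand. The motifs searched on both strands were TTTATNG for CDX2, CAAAGTNCA for HNF4A, TCAAGGTCA for the receptor NR5A2, the IR1 element of FXR (AGGTNA and its inverted copy TNACCT with 1 base between them) and the PXR elements DR3, DR4 and ER6, built from 2 copies of AGNTCA.
Slc10a2 (chr8:5105288-5105537, minus strand): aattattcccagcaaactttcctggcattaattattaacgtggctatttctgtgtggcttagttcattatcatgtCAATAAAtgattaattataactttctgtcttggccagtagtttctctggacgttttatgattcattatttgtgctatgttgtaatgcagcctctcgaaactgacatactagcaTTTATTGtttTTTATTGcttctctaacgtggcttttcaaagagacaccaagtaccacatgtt
Fabp6 (chr11:43601563-43601812, minus strand): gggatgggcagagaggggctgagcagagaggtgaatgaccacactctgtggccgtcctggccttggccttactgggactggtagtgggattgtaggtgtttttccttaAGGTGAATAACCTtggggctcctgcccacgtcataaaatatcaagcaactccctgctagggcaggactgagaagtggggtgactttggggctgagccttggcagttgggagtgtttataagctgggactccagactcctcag
Abcb1a (chr5:8566841-8567090, plus strand): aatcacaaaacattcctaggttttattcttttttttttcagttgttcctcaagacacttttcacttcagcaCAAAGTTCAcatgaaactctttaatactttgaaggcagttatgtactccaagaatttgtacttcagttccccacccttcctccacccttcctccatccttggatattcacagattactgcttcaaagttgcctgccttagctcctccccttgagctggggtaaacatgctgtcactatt
Abcc2 (chr19:43782058-43782307, plus strand): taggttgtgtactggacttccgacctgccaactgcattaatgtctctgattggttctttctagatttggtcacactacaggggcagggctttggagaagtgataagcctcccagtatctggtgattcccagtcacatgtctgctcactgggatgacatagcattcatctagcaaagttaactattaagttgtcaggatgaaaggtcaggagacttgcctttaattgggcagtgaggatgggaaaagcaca

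The Slc10a2 window held 3 CDX2 motifs, 175, 62 and 52 bases before the start. At least 1 such motif was found in 10.9% of the 32851 RefSeq windows, which are 300 bases long. The share of windows with 3 of them was not counted. The Fabp6 window held an IR1 element 142 bases before the start, as did 7 windows in all (0.0213%). The Abcb1a window held an HNF4A motif 179 bases before the start, found in 1.41% of windows. The NR5A2 motif occurred in 0.423% of windows, DR3 in 0.07%, DR4 in 0.125% and ER6 in 0.0304%. None of the motifs searched lay in the windows of Abcc2, Nr1h4, Nr1i2 or Nr0b2, which says only that these letters are not in those 300 bases. The Nr1h4 window lies at a start inside the gene span given with its values, not at the outer end of that span. No measurement of binding or of chromatin was analysed here, so a match is a description of the sequence.

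The perturbed factors were checked first. The depth was 6180498 to 11007809 counts a library for the lines and 8173640 to 11465309 for the enhancer experiment. Levels are given as CPM, counts scaled to the library size, and 3 counts in a single library correspond to 0.262 to 0.485 CPM. Cdx2 was at 183 ± 114 CPM in CDX2 lines (SD, n = 3), 4.86 ± 2.27 in GFP lines (n = 3), 34.1 ± 14.7 in HNF4A lines (n = 3) and 277 ± 6.9 in small intestine organoids (n = 2). Hnf4a was at 397 ± 107 CPM in HNF4A lines, 129 ± 31.4 in GFP lines, 275 ± 144 in CDX2 lines and 801 ± 119 in small intestine organoids, and transgene and mouse gene reads are not separated in the counts. Hnf4g, a paralog of Hnf4a, was at 10.3 CPM in GFP, 27.1 in CDX2, 16.4 in HNF4A and 34.9 in small intestine. The small intestine libraries had 11 of 12 enterocyte markers above 1 CPM in both, 0 counts of the stomach factor Sox2, and a summed level of gastric pit markers between 0.279 and 55.4 CPM, against 2160 to 7549 in GFP lines. CPM values depend on gene length and are compared between groups for 1 gene, never between genes. In bulk RNA, fewer cells of a type and less RNA per cell cannot be told apart.

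Small intestine organoids held more of 5 members than GFP gastric lines: the receptors Nr1h4 and Nr1i2, the hormone Fgf15 and the pumps Abcc2 and Abcb1a. These were the members called among the 6 tested (adjusted p under 0.05, edgeR quasi-likelihood test with Benjamini-Hochberg adjustment over all 12720 genes tested), in a comparison that called 27.1% of genes. Between CDX2 and GFP lines 0 of 6 members were called, where 0.409% of genes were. Between HNF4A and GFP lines 0 of 6 were called, where 0.142% of genes were. These counts of 0 depend on the fit: with the line number as a block, edgeR called 2 members in CDX2 lines (Fgf15 and Abcb1a; 4.54% of genes) and 1 in HNF4A lines (Nr1i2; 0.786% of genes). DESeq2 called 3 in CDX2 lines (Nr1h4, Fgf15 and Abcb1a; 3.88% of genes) and 2 in HNF4A lines (Nr1i2 and Abcb1a; 1.74% of genes). Limma-voom called 0 in both, and 1430 and 733 of all genes had an unadjusted edgeR p under 0.05. The 3 comparisons with GFP share the same GFP libraries and are not independent of each other. Groups without overlap, a description used in what follows, were found for 16% of genes between CDX2 and GFP, 11.6% between HNF4A and GFP, 8.32% between CDX2 and HNF4A, and 59.3%, 47.8% and 49.9% between small intestine and GFP, CDX2 and HNF4A lines. Nr0b2 and Fabp6 were too low to be tested in the lines, and Fgf15 and Abcc2 passed the filter on low counts through the groups in which they are high, so the count of 5 is no measure of the axis as a whole.

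**Figure D1:**
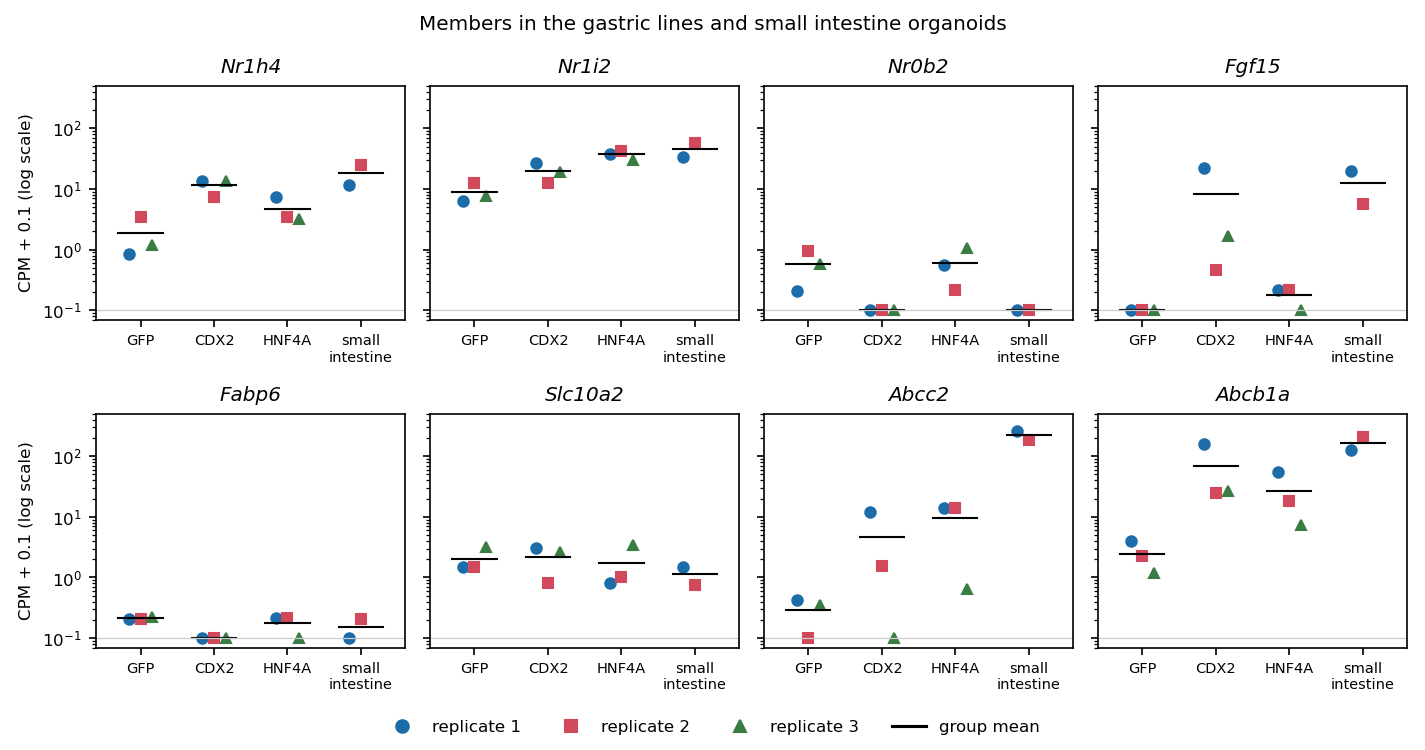
Level of each of the 8 genes in the 11 libraries of the lines, as CPM + 0.1 on a log axis; symbols are replicates, black bars are group means and the grey line marks 0 counts. The 2 small intestine libraries lie above the 3 GFP libraries for Nr1h4, Nr1i2, Fgf15, Abcc2 and Abcb1a. Fabp6 stays near the grey line in every group. Nr0b2 lies on that line in CDX2 and small intestine libraries and reaches at most 0.953 CPM in GFP and HNF4A lines.

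Nr1h4, the bile acid receptor FXR (chromosome 10, 89454234 to 89533645, GRCm38.p6, the assembly of mm10), was at 0.747, 3.40 and 1.10 CPM in GFP lines, 7.20, 3.40 and 3.13 in HNF4A lines, 13.6, 7.24 and 13.3 in CDX2 lines, and 11.6 and 25.0 in small intestine organoids, in the order of the replicate numbers. Each CDX2 library stood above each GFP and each HNF4A library, while the CDX2 and small intestine ranges overlapped. The margin to HNF4A lines was narrow, with CDX2 replicate 2 at 7.24 CPM (60 counts) and HNF4A replicate 1 at 7.20 CPM (62 counts). In small intestine the level was 10.3-fold that in GFP lines (log2 3.37 ± 0.66, SE; adjusted p = 0.00704). The difference between CDX2 and GFP lines (log2 2.68 ± 0.62, a 6.41-fold mean difference) did not pass in the edgeR fit over all lines (adjusted p = 0.104) or with the line number as a block (adjusted p = 0.0535). It passed with DESeq2 (adjusted p = 0.00123) and in gastric lines alone with the block (0.0391); over its alternatives the adjusted p ran from 0.00123 to 0.352. The ranges of HNF4A and GFP lines met at 3.40 CPM (log2 1.38 ± 0.61, adjusted p = 0.856), and CDX2 against HNF4A lines gave 1.31 ± 0.58 (adjusted p = 0.959). The order of the mean levels was GFP, HNF4A, CDX2 and small intestine, and the neighbours in it did not differ at the threshold.

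Nr1i2, the pregnane X receptor (chromosome 16, 38248349 to 38294849), was at 6.30, 12.3 and 7.60 CPM in GFP lines, 26.8, 12.5 and 19.2 in CDX2 lines, 38.2, 43.0 and 30.3 in HNF4A lines, and 33.9 and 57.2 in small intestine organoids. The 3 HNF4A libraries lay above the 3 CDX2 libraries and overlapped the small intestine range. This receptor thus stood higher under HNF4A than under CDX2, and FXR the other way round. Both differences were without overlap, as were 8.32% of genes, though for FXR only by a narrow margin. Neither of these differences passed (Nr1i2, CDX2 against HNF4A, log2 -0.93 ± 0.34, adjusted p = 0.752), in a comparison with 0 of 6 members called and 0.0236% of genes. There 659 genes had an unadjusted p under 0.05, limma-voom called 0 members and DESeq2 1 (Fgf15). HNF4A lines held 4.25-fold the Nr1i2 of GFP lines (log2 2.09 ± 0.36). This missed the threshold in the edgeR fit over all lines (adjusted p = 0.0657) and passed with the line number as a block (0.0468), with DESeq2 (1.3e-05), in gastric lines alone with the block (0.0295) and without CDX2 replicate 1 (0.0403); the range over alternatives was 1.3e-05 to 0.356. Small intestine against GFP gave log2 2.38 ± 0.38 (adjusted p = 0.00344), and CDX2 against GFP gave 1.16 ± 0.35 (adjusted p = 0.216). The order of the means was GFP, CDX2, HNF4A and small intestine, and HNF4A and small intestine differed by 0.29 ± 0.37 (adjusted p = 0.63).

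Nr0b2, the corepressor SHP that FXR induces in liver and ileum (chromosome 4, 133553376 to 133556686), was not higher where its receptor was. It had 1, 8 and 4 counts in GFP lines (0.107, 0.851 and 0.490 CPM) and 4, 1 and 7 in HNF4A lines (0.465, 0.113 and 0.953 CPM), and 0 counts in the 3 CDX2 and the 2 small intestine libraries. The 2 groups with the higher mean Nr1h4 were therefore those without a read of Nr0b2. Set against a floor of 3 counts over the group, the level was at least 3.95-fold lower in CDX2 than in GFP lines and at least 3.19-fold lower in small intestine than in GFP lines. The gene was below the filter, so these differences carry no test.

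Fgf15, the ileal hormone that signals bile acid supply to the liver (chromosome 7, 144896532 to 144900953), was not detected in GFP lines at this depth, with 0 counts in each of the 3 libraries. HNF4A lines had 1, 1 and 0 counts. CDX2 lines had 224, 3 and 10 counts, or 22.5, 0.362 and 1.58 CPM, and small intestine organoids had 209 and 50 counts, or 19.5 and 5.49 CPM. Each CDX2 library was above each GFP and HNF4A library, and CDX2 replicate 1 alone reached the small intestine range. Against the floor of 3 counts over the GFP group, Fgf15 was at least 86.6-fold higher in CDX2 lines and at least 117-fold higher in small intestine. The small intestine difference passed (adjusted p = 0.019) and was lost without small intestine replicate 1 (adjusted p = 0.0899; range over alternatives 1.52e-05 to 0.0899). The CDX2 difference did not pass in the edgeR fit over all lines (adjusted p = 0.165), passed with the block (0.0459) and with DESeq2 (0.000128), and ran from 0.000128 to 0.416 over its alternatives. Without CDX2 replicate 1 its fitted log2 value, which rests on the prior count, fell from 9.17 to 6.05 (adjusted p = 0.322). Between CDX2 and HNF4A lines the ratio was 120 (95% counting interval 32.7 to 993; adjusted p = 0.514, DESeq2 0.0109, range 0.0109 to 1). Without CDX2 replicate 1, which held 224 of the 237 CDX2 counts, the group sums gave at least 7.98-fold over GFP and a ratio of 11 to HNF4A lines (interval 2.49 to 101).

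The 2 genes that define bile acid uptake in the ileum did not set the small intestine organoids apart. The titles of these samples do not name the segment of the small intestine, so the values are not read as those of ileum. Fabp6, the ileal bile acid binding protein (chromosome 11, 43596040 to 43601562), had at most 1 count in any library: 1, 1 and 1 in GFP, 1, 1 and 0 in HNF4A, 0 and 1 in small intestine, and 0 in the 3 CDX2 libraries. No fold is given, since each group sum was at or under 3 counts, and the gene was not detectable above that limit in the small intestine organoids either. Slc10a2, the apical sodium-dependent bile acid carrier (chromosome 8, 5083219 to 5105287), was at 1.39, 1.38 and 3.06 CPM in GFP lines, 3.02, 0.724 and 2.52 in CDX2 lines, 0.697, 0.906 and 3.27 in HNF4A lines, and 1.40 and 0.658 in small intestine. The ranges of the 4 groups overlapped. Its differences were small beside their errors: log2 0.11 ± 0.77 for CDX2 against GFP (adjusted p = 0.981), -0.27 ± 0.78 for HNF4A against GFP (adjusted p = 1) and -0.90 ± 0.89 for small intestine against GFP (adjusted p = 0.47). The first of these signs reversed without CDX2 replicate 1 or 3 or without GFP replicate 1 or 2, and the second without GFP replicate 3 or HNF4A replicate 1 or 2. Slc51a, a subunit of the basolateral exporter that completes this route, had 45 counts in small intestine and 9 in GFP lines, without overlap (2.34 against 0.319 CPM, log2 2.79 ± 1.68, adjusted p = 0.234). The other subunit, Slc51b, had 4 counts in small intestine and 0 in GFP lines.

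Abcc2, the apical pump MRP2 that exports conjugated bilirubin, drugs and bile acids (chromosome 19, 43782308 to 43838332), separated the small intestine from the other organoids. It was at 260 and 185 CPM in small intestine, 0.320, 0 and 0.245 in GFP lines, 12.1, 1.45 and 0 in CDX2 lines, and 14.1, 13.7 and 0.544 in HNF4A lines. Both small intestine libraries exceeded each of the 9 gastric libraries, and the 3 HNF4A libraries lay above the 3 GFP libraries while the CDX2 range overlapped both. The difference from GFP lines was log2 10.12 ± 1.74 (adjusted p = 0.00434), from CDX2 lines 5.56 ± 1.30 (adjusted p = 0.0292) and from HNF4A lines 4.55 ± 1.24 (adjusted p = 0.0419). Abcc2 was the 1 member of 6 called between small intestine and CDX2 lines, where 11.3% of genes were, and with Fgf15 it made up the 2 of 6 called between small intestine and HNF4A lines, where 12.5% were. The call against CDX2 lines was lost without CDX2 replicate 2 (adjusted p = 0.0672), CDX2 replicate 3 (0.0619) or small intestine replicate 1 (0.171), and in a fit of those 2 groups alone (0.0905), within a range of 0.005 to 0.171.

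Both calls against HNF4A lines lay close to the threshold and were lost in several fits without 1 library. The Abcc2 call was lost without any 1 of the GFP, HNF4A or small intestine libraries (adjusted p from 0.0508 without GFP replicate 3 to 0.228 without small intestine replicate 1), and held without any 1 CDX2 library. For Fgf15 the ratio between small intestine and HNF4A lines was 162 (95% counting interval 44.3 to 1342; adjusted p = 0.0462), and the call was lost without GFP replicate 1 or 2 and without any 1 of the HNF4A or small intestine libraries, up to an adjusted p of 0.254. In those fits the fold kept its direction. Between the gastric lines, Abcc2 gave log2 4.56 ± 1.72 for CDX2 against GFP (adjusted p = 0.341) and 5.57 ± 1.67 for HNF4A against GFP (adjusted p = 0.402). Neither passed with the block (0.0767 and 0.066), and without CDX2 replicate 1, which held 120 of the 132 CDX2 counts, the CDX2 value was 2.01. DESeq2 gave no adjusted p for this gene.

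Abcb1a, a P-glycoprotein gene whose pump exports drugs into the gut lumen (chromosome 5, 8567091 to 8748575), was at 3.84, 2.13 and 1.10 CPM in GFP lines, 54.1, 17.9 and 7.21 in HNF4A lines, 156, 24.3 and 26.2 in CDX2 lines, and 128 and 208 in small intestine. Each CDX2, HNF4A and small intestine library was above each GFP library, and CDX2 replicate 1 was the only transgenic library within the small intestine range. The small intestine level was 70.1-fold that of GFP lines (log2 6.13 ± 1.08, adjusted p = 0.00474). CDX2 lines held 28.8-fold the GFP level (log2 4.85 ± 1.01): this missed the threshold in the edgeR fit over all lines (adjusted p = 0.0811), passed with the block (0.0143), with DESeq2 (5.02e-07) and in gastric lines alone with the block (0.00137), and ran up to 0.321. Without CDX2 replicate 1 the difference was 3.40 (adjusted p = 0.209). HNF4A lines gave log2 3.47 ± 0.97 (adjusted p = 0.335), which did not pass with the block over all lines (0.0799) and passed with DESeq2 (0.00191) and in gastric lines alone with the block (0.0089), in a range of 0.00191 to 1. Without HNF4A replicate 1 it was 2.40. Small intestine against HNF4A lines gave 2.66 ± 0.92 (adjusted p = 0.0834), and against CDX2 lines 1.28 ± 0.90 (adjusted p = 0.367). Reads of Abcb1a and its close paralog Abcb1b may be shared; Abcb1b was at 12.3 ± 5.33 CPM in GFP, 6.42 ± 5.17 in CDX2, 15.1 ± 6.47 in HNF4A (n = 3 each) and 10.9 ± 8.08 in small intestine (n = 2), with no such order of groups.

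**Figure D2:**
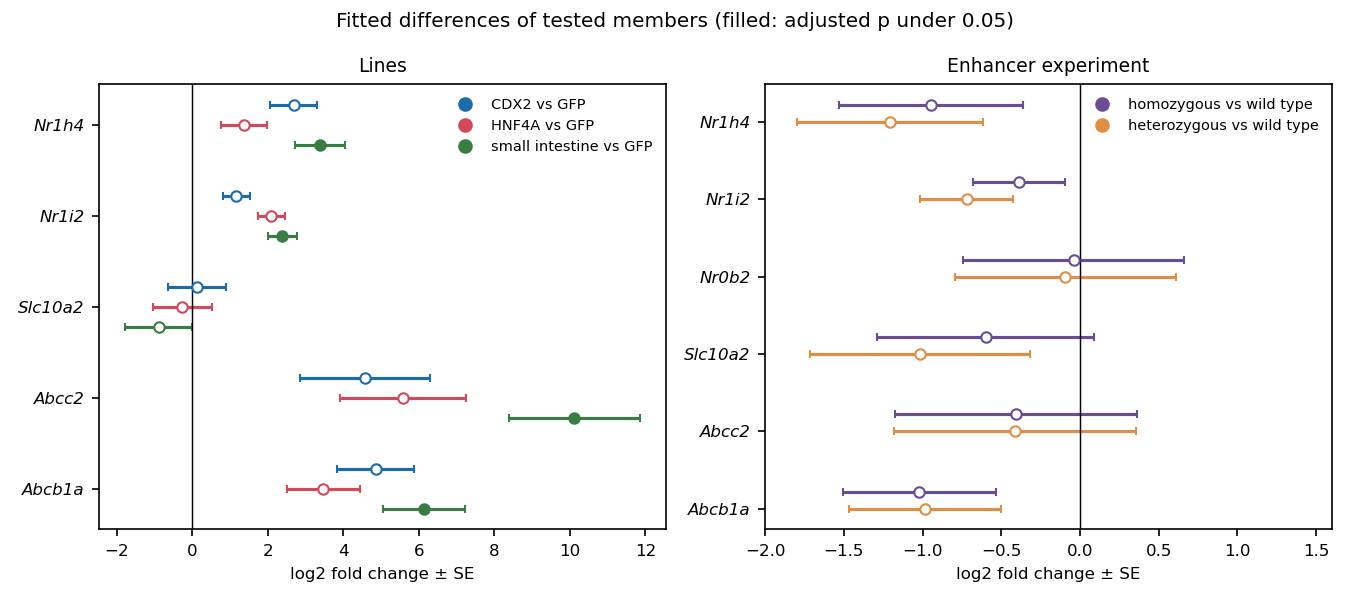
Log2 fold changes of the tested members with their standard errors, in the lines against GFP (left; Fgf15, at 0 counts in GFP, is left out) and in the enhancer experiment against wild type (right); filled points have an edgeR adjusted p under 0.05. On the left the filled points are Nr1h4, Nr1i2, Abcc2 and Abcb1a in small intestine, and on the right no point is filled.

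Among the 13 tested related receptors and partners, small intestine organoids had 3 higher and 3 lower than GFP lines, where 14.2% of all tested genes were called higher and 12.9% lower. The lists that follow are to be read against the same shares and, for CDX2 and HNF4A lines, against the shares given above for each fit. Nr5a2, a nuclear receptor that takes part in bile acid synthesis, had 135 counts against 1 (ratio 183, 95% counting interval 32.3 to 7291; adjusted p = 0.00414), and Vdr, the vitamin D receptor, which also binds lithocholic acid, rose by log2 3.47 ± 0.89 (adjusted p = 0.0192). Ppara, a fatty acid receptor, rose by 2.18 ± 0.72 (adjusted p = 0.0467), and Ahr, the dioxin receptor, fell by 1.72 (SE 0.50, adjusted p = 0.0298). In CDX2 and HNF4A lines edgeR called 0 of the 13, with or without the block, and DESeq2 1 in each. The smallest p in CDX2 lines belonged to Vdr, at 49.2 ± 59.7 CPM against 8.61 ± 2.36 in GFP (n = 3 each; adjusted p = 0.259, DESeq2 0.0269), and in HNF4A lines to Nr1i3, the constitutive androstane receptor and a relative of PXR, at 12.1 ± 8.19 against 1.5 ± 0.579 (adjusted p = 0.384, DESeq2 0.0288). Rxra, the shared partner of FXR and PXR, was at 85.4 CPM in GFP, 79.3 in CDX2, 93.1 in HNF4A and 45.9 in small intestine.

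Of the textbook targets of PXR and its relative CAR, 21 were tested in the lines. Small intestine organoids had 6 of them higher and 2 lower than GFP lines. Cyp2c66, a cytochrome P450, had 473 counts against 1 (ratio 642, 95% counting interval 115 to 25412; adjusted p = 0.0246), Ces2a, a carboxylesterase, rose by log2 7.43 ± 1.74 (adjusted p = 0.0137), and the P450 genes Cyp2c29 (ratio 148, adjusted p = 0.00755) and Cyp3a25 (ratio 102, adjusted p = 0.0167) had 1 GFP count each. In HNF4A lines the median difference of the 21 from GFP was log2 2.89, with 19 above 0, and in CDX2 lines 1.48, with 17 above 0, while the median of all tested genes was 0.00 in both. None of the 21 passed in the edgeR fit over all lines in either. DESeq2 called 8 in HNF4A lines, where it called 1.74% of all genes, and 4 in CDX2 lines, where it called 3.88%. Enterocyte markers moved with them: the 11 tested had a median of 3.88 in HNF4A lines (10 above 0) and 2.33 in CDX2 lines (9 above 0), and the 12 in the table summed to 1498 to 2001 CPM in HNF4A, 1059 to 1542 in CDX2 and 474 to 739 in GFP lines. Their part in the result was not tested. Some genes of both lists, such as Cyp2c29, Cyp2c66, Cyp3a25 and the enterocyte marker Alpi, had 1 GFP count each. They were kept by the filter on low counts through the groups in which they are high. The filter can thus raise the medians, the counts above 0 and the counts called, which are no measure of either list as a whole. In HNF4A lines 3 of the 21 targets passed with the block (0.786% of all genes did). Among them were Cyp2c29, at 5.83 ± 4.25 CPM (n = 3, 150 counts against 1 in GFP, ratio 163, interval 28.8 to 6482, adjusted p = 0.1 and 0.0158 with the block), and Cyp2c55, at 106 ± 71.6 against 1.64 ± 1.48 (log2 5.97 ± 1.17, adjusted p = 0.102 and 0.048 with the block). In CDX2 lines 2 passed with the block (4.54% of all genes did), among them Cyp2c55, at 82 ± 101 CPM (adjusted p = 0.0784 and 0.0311 with the block). Ces2a, at 14.4 ± 23.2 CPM, did not pass (adjusted p = 0.152 and 0.122 with the block). Cyp3a25 stood at 10.7 ± 2.02 CPM in HNF4A and 0.362 ± 0.627 in CDX2 lines without overlap (log2 -4.81 ± 1.21 for CDX2 against HNF4A, adjusted p = 0.363).

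**Figure D3:**
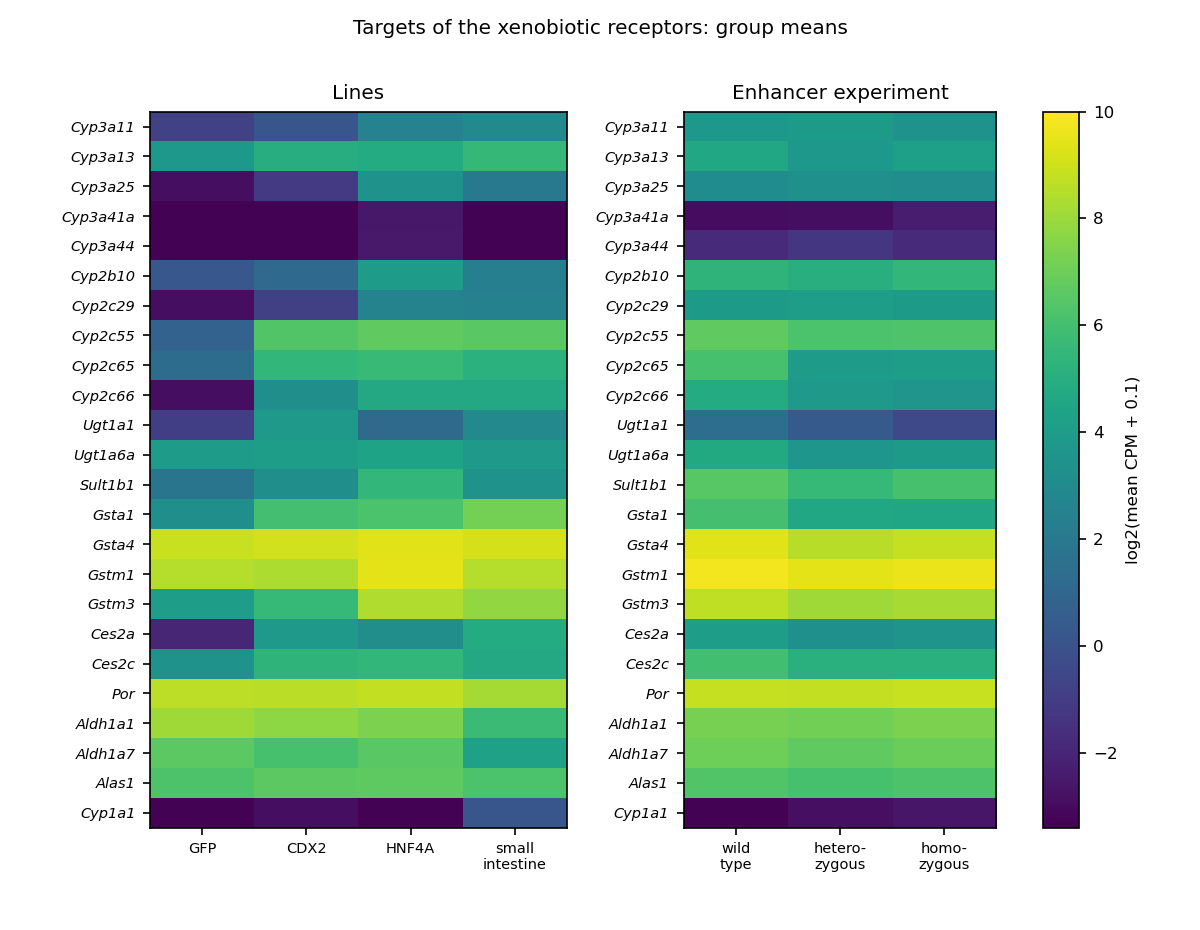
Mean level of 24 textbook targets of the xenobiotic receptors in each group, as log2(mean CPM + 0.1), in the lines (left) and the enhancer experiment (right); each row is 1 gene, to be read across groups. Cyp2c55 rises in colour from 1.64 CPM in GFP to 82, 106 and 94.5 CPM in CDX2, HNF4A and small intestine, and Cyp2c65 is darker in the heterozygous (16 CPM) and homozygous (16.3 CPM) groups than in wild type (68.6 CPM).

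The other pumps followed Abcc2 and Abcb1a in small intestine organoids in part: of 10 tested, 3 were higher and 1 lower than in GFP lines. The sterol exporter pair Abcg5 and Abcg8 stood at 27.8 ± 11.1 and 22.1 ± 0.364 CPM in small intestine (n = 2), against 0.178 and 0.071 in GFP lines (Abcg5 log2 7.14 ± 1.06, adjusted p = 0.00258; Abcg8 ratio 298, 95% counting interval 82 to 2468, adjusted p = 0.00106). Abcg2, which exports drugs and urate, rose by 4.32 ± 0.78 (adjusted p = 0.00504), and the cholesterol exporter Abca1 fell by 4.19 (SE 1.09, adjusted p = 0.0207). Small intestine also exceeded CDX2 and HNF4A lines in both Abcg5 and Abcg8. In CDX2 lines Abcg8 had 68 counts against 2 in GFP (ratio 37.3, interval 9.93 to 314, adjusted p = 0.0651 and 0.0213 with the block), and in HNF4A lines 96 (ratio 52.2, interval 14.1 to 437, adjusted p = 0.0657 and 0.026 with the block). Of the 10 pumps, edgeR called 0 in both without the block, 3 in CDX2 and 2 in HNF4A lines with it, and DESeq2 called 2 and 4.

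Genes of bile acid transport outside the members showed no call in the edgeR fit over all lines (6 tested of 14 in the table). With the block 1 was called between small intestine and CDX2 lines. Abcc3, the basolateral pump, was at 513 ± 211 CPM in GFP, 589 ± 146 in CDX2, 561 ± 256 in HNF4A (n = 3 each) and 366 ± 111 in small intestine (n = 2). Of 8 tested genes of bile acid synthesis, small intestine had 1 higher than GFP lines, Slc27a2, which activates very long chain fatty acids and bile acid precursors (log2 4.42 ± 0.69, adjusted p = 0.00311), and 4 lower. The lower ones included Acox2, an oxidase of bile acid side chains (-1.52 ± 0.33, adjusted p = 0.00968), and Hsd3b7, an early enzyme of the route (-0.94 ± 0.19, adjusted p = 0.00779). In CDX2 lines Hsd17b4, a peroxisomal enzyme of side chain shortening, was at 155 CPM against 220 in GFP (-0.50 ± 0.14, adjusted p = 0.177, 0.0382 with the block and 0.0156 with DESeq2). Slc27a2 went the other way, at 2.56 CPM against 0.575 (2.15 ± 0.64, adjusted p = 0.209, 0.112 with the block and 0.0287 with DESeq2). In HNF4A lines Slc27a2 was at 4.19 CPM (2.85 ± 0.64, adjusted p = 0.169, 0.11 with the block and 0.000974 with DESeq2). Of the 8 genes 1 was above 0 in CDX2 and 4 in HNF4A lines. Transcription factors of the intestinal epithelium gave 9 higher and 2 lower of 13 in small intestine and 2 higher in CDX2 lines (Isx, at least 664-fold, adjusted p = 0.00611, and Cdx2 itself, log2 5.23 ± 0.61, adjusted p = 0.00853). In HNF4A lines edgeR called 0 of the 13 without the block and 3 with it, among them Isx (adjusted p = 0.00912) and Cdx2 (0.026), and DESeq2 called 4. In CDX2 lines the block gave 5 and DESeq2 6.

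In the enhancer experiment, all organoids overexpressed HNF4A, with Hnf4a at 425 ± 97.8 CPM in wild type, 347 ± 73.1 in heterozygous and 355 ± 19 in homozygous organoids (n = 3 each). Cdx2 was at 34 ± 21.8, 11.1 ± 6.63 and 0.716 ± 0.594 CPM in the same order. The difference in Cdx2 between homozygous and wild type (log2 -5.53 ± 0.79) did not overlap and did not pass in the edgeR fit (adjusted p = 0.377), and passed with DESeq2 (8.75e-11). The members showed no difference of that size. None of the 6 tested was called between homozygous and wild type, heterozygous and wild type, or homozygous and heterozygous organoids, where edgeR called 0% of the 12593 genes tested in each. At an unadjusted p under 0.05 there were 578, 1125 and 33 genes, and DESeq2 called 180, 327 and 1, none of them a member. The groups of 0 of 6 members were without overlap in any of the 3 comparisons, against 8.9%, 14.9% and 1.95% of genes.

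**Figure D4:**
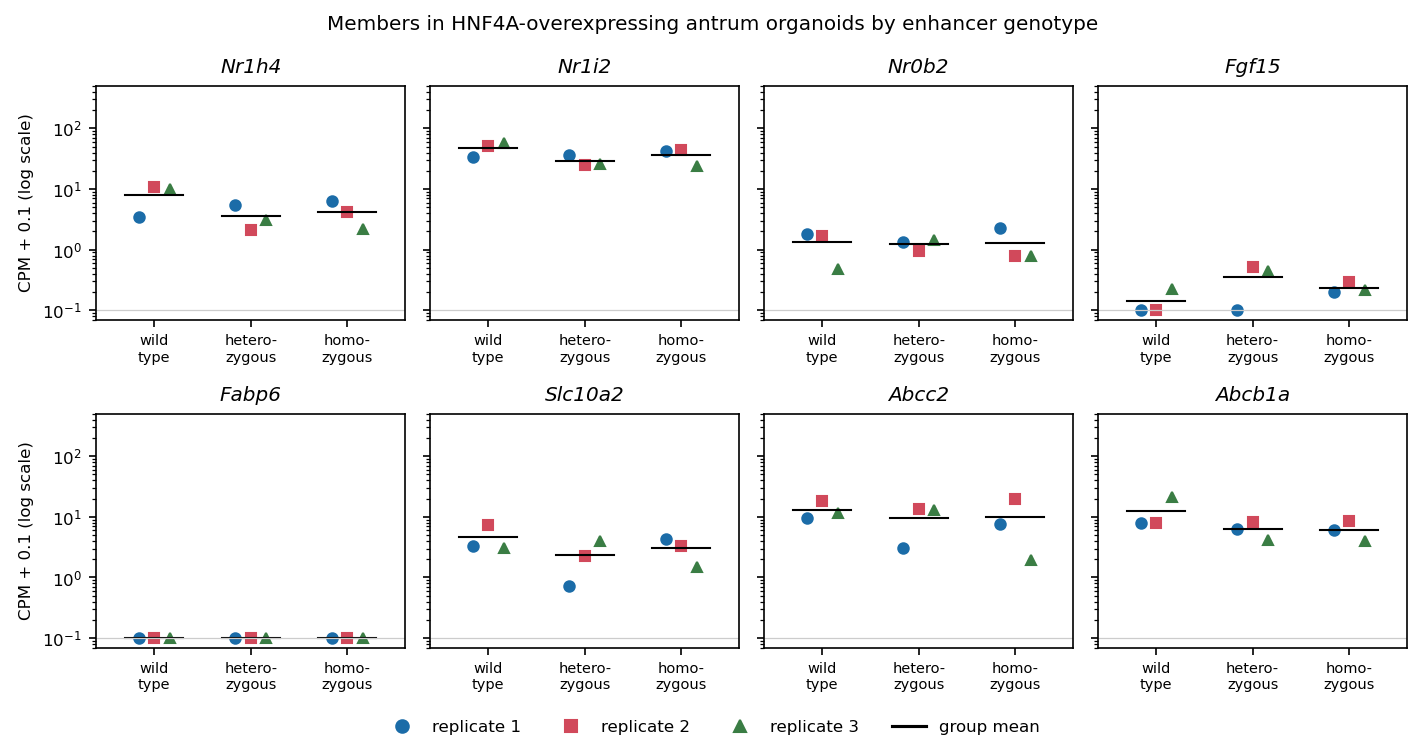
Level of each of the 8 genes in the 9 libraries of HNF4A-overexpressing antrum organoids by genotype of the Cdx2 3' enhancer, as CPM + 0.1 on a log axis; symbols are replicates, black bars are group means and the grey line marks 0 counts. The ranges of the 3 genotypes overlap for each gene, and Fabp6 lies on the grey line in each library.

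Nr1h4 was at 3.33, 10.7 and 9.93 CPM in wild type, 5.34, 2.05 and 2.95 in heterozygous and 6.17, 4.09 and 2.11 in homozygous organoids. The 2 highest values were wild type, but wild-type replicate 1 lay inside the range of the deletion groups. The mean of the homozygous group was lower by log2 -0.94 ± 0.58 (adjusted p = 0.999) and that of the heterozygous group by -1.21 ± 0.59 (adjusted p = 0.587). Nr1i2, the xenobiotic receptor, was at 33.8, 51.3 and 58.2 CPM in wild type, 36.8, 24.6 and 25.5 in heterozygous and 42.0, 43.9 and 23.6 in homozygous organoids. Its differences from wild type were -0.72 ± 0.29 (heterozygous, adjusted p = 0.543) and -0.38 ± 0.29 (homozygous, adjusted p = 0.999), with overlap in both.

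Of the FXR targets, Nr0b2 was detected in each enhancer library, at 1.71, 1.56 and 0.382 CPM in wild type, 1.26, 0.854 and 1.36 in heterozygous and 2.19, 0.682 and 0.702 in homozygous organoids. Its differences were near 0 (-0.09 ± 0.70 and -0.04 ± 0.70 for heterozygous and homozygous against wild type), and their signs changed between fits. Fgf15 had 1 count in wild type, 8 in heterozygous and 4 in homozygous organoids over 3 libraries each, too few to be tested. The ratio to wild type was 7.26 (95% counting interval 0.973 to 322) in heterozygous and 3.78 (0.374 to 186) in homozygous organoids, so no difference was detectable at this depth. Fabp6, the bile acid binding protein, had 0 counts in the 9 libraries, where 3 counts would be 0.262 to 0.367 CPM.

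Slc10a2, the uptake carrier, was at 3.15, 7.34 and 2.93 CPM in wild type, 0.629, 2.13 and 3.86 in heterozygous and 4.18, 3.22 and 1.4 in homozygous organoids (log2 -1.02 ± 0.70, adjusted p = 0.686, and -0.60 ± 0.69, adjusted p = 0.999, against wild type). Abcc2, the pump MRP2, was at 9.35, 17.9 and 11.3 CPM in wild type, 2.93, 13.1 and 12.8 in heterozygous and 7.46, 19.7 and 1.87 in homozygous organoids (-0.41 ± 0.77 in both, adjusted p = 0.902 and 0.999). The spread within the deletion groups exceeded the difference between their means. Abcb1a was at 7.91, 7.82 and 21.0 CPM in wild type, 6.29, 8.11 and 4.09 in heterozygous and 5.87, 8.28 and 3.86 in homozygous organoids. Wild-type replicate 3 was the highest and the rest overlapped (-0.98 ± 0.48, adjusted p = 0.59, and -1.02 ± 0.48, adjusted p = 0.999). Between homozygous and heterozygous organoids the 6 members differed by -0.04 to 0.42 on the log2 scale, each with an adjusted p of 1, also with the replicate number as a block.

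Markers of other cell types also had different levels between the genotypes, though edgeR without the block called 0 of them. Against wild type DESeq2 called 5 of the 6 tested fibroblast markers in each deletion group and 0 of the 5 epithelial markers. Of all genes it called 2.6% in heterozygous and 1.43% in homozygous organoids. Wild type had 0 of the 12 fibroblast markers above 1 CPM in all its libraries. The 6 tested thus passed the filter on low counts through deletion libraries, where they are high, and their count is no measure of the list. Wnt3a, a growth factor gene, was at 0, 0.241 and 4.33 CPM in wild type, 175, 1809 and 3099 in heterozygous and 95.1, 196 and 2053 in homozygous organoids. The summed level of 12 fibroblast markers was 3.31 to 6.74 CPM in wild type, 84.3 to 1154 in heterozygous and 33.9 to 926 in homozygous organoids, with Lum at 0 in the 9 libraries. The epithelial markers went the other way, with overlapping ranges. They summed to 6242 to 9615 CPM in wild type, 3673 to 6564 in heterozygous and 3935 to 6295 in homozygous organoids. The 5 of them had a median difference from wild type of log2 -0.54 (heterozygous) and -0.47 (homozygous), with 0 above 0 in either. Posterior Hox genes followed the order of the fibroblast markers (0 to 0.63, 12.1 to 178 and 3.78 to 125 CPM summed). The members were also fitted without the 3 libraries above 1000 CPM of Wnt3a. Since edgeR called 0 genes with all 9 libraries, the calls of this smaller fit can show nothing, and only its log2 differences are given. Homozygous against wild type gave 0.08 for Abcc2 and 0.22 for Nr0b2. That fit keeps 1 heterozygous library, replicate 1, the lowest of its group in Abcc2 and Slc10a2. Heterozygous against wild type then gave -2.13 for Abcc2 and -2.80 for Slc10a2, and homozygous against heterozygous 2.21 and 2.54. The part of the Wnt3a, fibroblast and Hox transcripts in the members' values was not tested.

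In the other lists of the axis edgeR called 0 genes by genotype, with or without the block. DESeq2 called Fgfr1 (adjusted p = 0.0105), Cyp2c65 (0.042) and Abcb1b (0.0203) between heterozygous and wild type, and between homozygous and wild type 2 intestinal factors and 1 proximal enterocyte gene; between homozygous and heterozygous it called 1 intestinal factor, Cdx2. The 21 tested xenobiotic targets had a median difference from wild type of log2 -0.67 in heterozygous (3 above 0) and -0.42 in homozygous organoids (5 above 0), where all tested genes had a median of 0.00. The 5 epithelial markers had medians of -0.54 and -0.47, so a shift of this size was not particular to the targets. Cyp2c65, a P450 gene, was at 68.6 ± 63.6 CPM in wild type, 16 ± 3.01 in heterozygous (log2 -2.10 ± 0.68, adjusted p = 0.462) and 16.3 ± 9.89 in homozygous organoids (-2.06 ± 0.68, adjusted p = 0.877). Ugt1a1, which conjugates bilirubin, was at 2.62 ± 1.04, 1.21 ± 0.376 and 0.635 ± 0.374 CPM in that order, without overlap between homozygous and wild type (-2 ± 0.62, adjusted p = 0.877). Some genes went the other way: Abcb1b, the paralog of Abcb1a, was at 5.09 ± 1.14, 24 ± 10.6 and 17.6 ± 16 CPM, and Fgfr1, a receptor of fibroblast growth factors, at 0.571 ± 0.544, 36.7 ± 26.9 and 21.8 ± 33 CPM (n = 3 each). Gpbar1, the membrane receptor of bile acids, had 0 counts in wild type and was at least 17.8-fold higher in heterozygous (adjusted p = 0.488) and at least 6.62-fold higher in homozygous organoids (adjusted p = 0.999). These 3 genes had their higher means in the groups with the higher Wnt3a and fibroblast marker levels, and the part of those transcripts in them was not tested.

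The genes closest in pattern to each tested member were those with the smallest root mean square difference of centred log2 CPM over the libraries of an experiment. In the 11 libraries of the lines Nr1i2 was nearest to Igsf23 (0.24), Pklr (0.33), which encodes a pyruvate kinase, and Eif4e3 (0.38), where its own SD was 0.99. Abcb1a was nearest to Themis3 (0.53), the glucuronosyltransferase gene Ugt1a7c (0.70) and the brush border protease gene Mep1b (0.72), with an own SD of 2.37. Abcc2 was nearest to the differentiation keratin Krt20 (1.34), Cyp4f14 (1.48) and Aoc1 (1.55), with an own SD of 3.50. Nr1h4 stood nearest to Myom3 (0.52), Ttc7b (0.56) and Jag1 (0.58), Fgf15 to Syt7 (0.94), Maoa (0.97) and Clec2e (1.00), and Slc10a2 to Amotl2, Atp11a and Nbea (0.38 to 0.39), with own SDs of 1.40, 2.51 and 0.74.

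In the 9 enhancer libraries the nearest genes were others throughout. Nr1i2 was nearest to Entpd5 (0.09), Cideb (0.12) and the transcription factor gene Cebpa (0.12; own SD 0.44), and Nr1h4 to Oit1 (0.19), Btnl5-ps and Bco2 (0.25 each; own SD 0.79). Abcc2 was nearest to Cyp2c55 (0.25), Rdh7 (0.32) and Ces2a (0.35; own SD 1.05), so 2 of its 3 nearest genes belong to the listed xenobiotic targets. Abcb1a was nearest to Acta1 (0.16), Slc30a10 and Mid1ip1, Slc10a2 to Emb (0.35), C4bp and Ifi27l2b, and Nr0b2 to Zfp532, Tceal1 and Rassf9 (0.27 to 0.28). All genes of an experiment share the same libraries and depth, so likeness is a description without a test.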

How the data were processed

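Per the labels' protocols, RNA was taken from organoids freed from matrigel, purified with TRIzol and a column kit with DNase, made into poly-A libraries and sequenced as 150 bp paired reads. The authors deposited raw read counts per gene symbol in 1 table of 20 libraries; 0 other per-sample columns were left unused. The submitters' processing notes name STAR, Bowtie2, Cell Ranger, mm10 and hg19. Which of these made the counts, the counting program, the annotation and the strand setting are each not given in the sources used here. Antisense or paralogous reads may therefore be mixed.

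The 2 experiments were fitted separately in R 4.3.3 with edgeR 4.0.16 (quasi-likelihood test, TMM factors, all groups of an experiment in 1 fit, low genes removed by filterByExpr with its count minimum at 10 and its total minimum at 15). Adjusted p-values are Benjamini-Hochberg over all genes tested, with a threshold of 0.05; tests are two-sided. CPM values use TMM library sizes. Alternatives were DESeq2 1.42.0, limma-voom (limma 3.58.1), other size factors, no filter, pairs of groups alone, the replicate number as a block and each library left out. A run of the edgeR fit on simulated counts checked the code only. Those counts had the same set spread for all genes and no deviations shared between libraries, so they do not show how the test performs here. Counting intervals are exact 95% intervals of a ratio of 2 group sums, and floors use 3 counts over the group; both cover counting error only. Replicate numbers were taken from the labels. Same-numbered gastric lines deviated together (r across genes 0.336 to 0.751 in 9 pairs), as did heterozygous and homozygous enhancer libraries (0.188 to 0.53 in 3 pairs), so the block is read there. Wild-type enhancer libraries did not deviate consistently with the same-numbered heterozygous (r -0.29 to -0.097) or homozygous ones (-0.105 to 0.244). Block results against wild type therefore do not pair samples. Replicates differed beyond sampling noise (chi-square per degree of freedom 22.56 to 84.91). Nothing in the labels says that replicates came from separate animals, so p-values measure the spread between libraries.

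The 8 members and the gene lists were chosen with earlier results of these data known. Beyond the members and Cdx2, Hnf4a and Hnf4g, genes were named per list and comparison as up to 4 called genes with the largest fold change or, where none was called, up to 2 with the smallest p, and as the 3 genes most alike each tested member. Rxra, Slc51b and Wnt3a, and a named gene's values in groups where the rule did not pick it, were added after their values were seen.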

Additional observations from a re-analysis of the deposited data

How the results depend on the processing

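Counts of members called depended on the test in the transgenic lines. Against 0 of 6 called in CDX2 against GFP lines, DESeq2 called 3, the replicate block 2 and gastric lines alone with the block, a fit chosen after seeing the data, 2. Against 0 in HNF4A against GFP lines, DESeq2 called 2, the block 1 and gastric lines alone with the block 2, and leaving out 1 library gave 0 to 1. In CDX2 against HNF4A lines DESeq2 called 1. In small intestine against CDX2 lines the 2 groups alone gave 0 and leaving out 1 library 0 to 1, where 1 was called. In small intestine against HNF4A lines, where 2 were called, no filter gave 0, the 2 groups alone 1 and leaving out 1 library 0 to 3. In small intestine against GFP lines leaving out 1 library gave 4 to 5. With fewer libraries or groups fewer degrees of freedom remain; otherwise the cause was not tested. The block changed no call of a member in the enhancer experiment, and in fits with small intestine its numbers do not pair samples (r -0.088 to 0.118); there it gave Abcb1a an adjusted p of 0.0204 against HNF4A lines. Over all genes, calls in the edgeR fit, with the block, with DESeq2 and with limma-voom were 52, 578, 493 and 4 for CDX2 against GFP, 18, 100, 221 and 5 for HNF4A against GFP, and 3, 28, 139 and 2 for CDX2 against HNF4A. Without, with the block and with DESeq2 they were 1437, 2942 and 2675 for small intestine against CDX2, 1585, 3061 and 2791 against HNF4A lines, 0, 5 and 180 for homozygous and 0, 51 and 327 for heterozygous against wild type.

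Signs reversed among members that were not called. Without the 3 libraries above 1000 CPM of Wnt3a, a choice made after seeing the data that leaves 1 heterozygous library, assumed to vary like the other groups, homozygous against wild type gave 0.22 (Nr0b2) and 0.08 (Abcc2), heterozygous against wild type 0.02 (Nr0b2), and homozygous against heterozygous -0.05 (Nr1h4) and 0.18 (Abcb1a). Nr0b2 in heterozygous against wild type was 0.03 with limma-voom and 0.04 with the block. In homozygous against heterozygous organoids limma-voom gave -0.10 (Nr0b2) and -0.22 (Abcc2), and the block -0.14 and -0.11. Leaving out 1 library moved Slc10a2 from -0.27 to 0.59 (CDX2 against GFP), -1.26 to 0.22 (HNF4A against GFP), 0 to 1.37 (CDX2 against HNF4A), -1.27 to 0.36 (small intestine against HNF4A) and -0.02 to 1.09 (homozygous against heterozygous). It moved Abcb1a from -0.07 to 2.45 (CDX2 against HNF4A) and -0.31 to 0.22 (homozygous against heterozygous), Fgf15 from -0.58 to 3.70 (small intestine against CDX2), Nr1i2 from -0.13 to 0.62 (small intestine against HNF4A) and Nr1h4 from -0.14 to 0.72 (homozygous against heterozygous). For homozygous against wild type, heterozygous against wild type and homozygous against heterozygous, Nr0b2 ranged from -0.83 to 0.29, -0.51 to 0.24 and -0.71 to 0.36, and Abcc2 from -1.44 to 0.07, -0.73 to 0.02 and -1.01 to 0.51. The cause was not tested.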
